A study of Mus musculus with 6 samples.

Results

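Decorin, lumican, biglycan, fibromodulin, osteoglycin, keratocan, asporin, prolargin and osteomodulin (Dcn, Lum, Bgn, Fmod, Ogn, Kera, Aspn, Prelp and Omd) are 9 small leucine-rich proteoglycans of connective tissue, and their transcripts were followed in mouse retina after nanoparticle injection. They were found by name among 31710 gene names on the array, and they had been selected on their log2 ratios on the 6 arrays with the slides compared. Their values are therefore given as a description, with no test. A probe was kept if its Cy3 or Cy5 signal stood well above background on 3 or more arrays, and all 9 genes passed, among 26135 in all.

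The retinas were taken at day 7 after an intravitreal injection, which places fluid in the gel behind the lens, from male C57BL/6 mice that were 8 weeks old. Mice received either phosphate-buffered saline (PBS, the control) or titanium dioxide nanoparticles, at a dose called PTC in the labels or at 10 times that dose (10PTC), with 12 mice in each group. Each tube of RNA held 4 pooled retinas, and each dose gave 3 pools. Every array carried a treated pool labelled with Cy5 beside PBS control RNA labelled with Cy3, with no dye swap, so that a dye bias of a probe cannot be told apart from treatment. PTC replicates 1 and 2 were on slide 1, and PTC replicate 3 lay on slide 2 together with the 3 10PTC arrays.

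Small leucine-rich proteoglycans are secreted proteins with a curved leucine-rich domain, most of which carry chondroitin, dermatan or keratan sulfate chains. They bind collagen fibrils and set the width and spacing of those fibrils, and several also hold growth factors in the matrix. In the eye they are best known from the collagenous coats, where lumican and keratocan of the cornea, made by keratocytes, keep the fibrils evenly spaced, while the neural retina itself holds little fibrillar collagen.

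The probes of Dcn, Lum, Kera and Bgn are shown because the results turn on these genes. All probes are 60 bases long, and their positions are those of the array design, on mouse build mm9, plus strand. The Dcn probe lies at chr10:96980233-96980292, the Lum probe at chr10:97035210-97035269, the Kera probe at chr10:97076230-97076289 and the Bgn probe at chrX:70738554-70738613. For Lum and Kera the first 30 bases are printed. The exon or UTR that each probe falls in was not analysed here.
Dcn: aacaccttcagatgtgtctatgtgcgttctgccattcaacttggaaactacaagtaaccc
Lum, first 30 bases: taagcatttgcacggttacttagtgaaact
Kera, first 30 bases: gcagttattataacatagcatgcaaactat
Bgn: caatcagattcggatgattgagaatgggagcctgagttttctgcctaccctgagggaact

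The libraries differed by slide beyond these genes. Between 71.0% and 85.5% of 43020 gene spots per array stood well above background, with the 2 lowest shares on slide 1. Ratios of different arrays correlated across genes at 0.619 to 0.878. Transcripts of skeletal muscle, fat and cornea moved strongly against the control, and their values are given below beside the proteoglycans. The 15 markers of retinal neurons and Müller glia were detected above background on every array in Cy3 and in Cy5.

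Over the arrays, Dcn, Lum and Kera were lower in the treated channel on slide 2 and near the control on slide 1, Bgn was modestly lower at 10PTC, and Fmod, Prelp and Ogn stayed near the control or varied around it. Aspn and Omd were dim and modestly lower, by an amount that depended on the background offset. The median log2 ratio of the 9 genes was -0.28 at PTC and -0.35 at 10PTC, where that of all genes was -0.00076 and -0.00045. At 10PTC it was -0.66 without the offset, -1.16 with the scanner software's processed signals and -1.14 in the authors' deposited table. By slide it was -0.12 on slide 1 and -0.43 on slide 2. Retinal pools mix many cell types, so that fewer cells of a type and less RNA per cell cannot be told apart in any of these values.

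**Figure D1:**
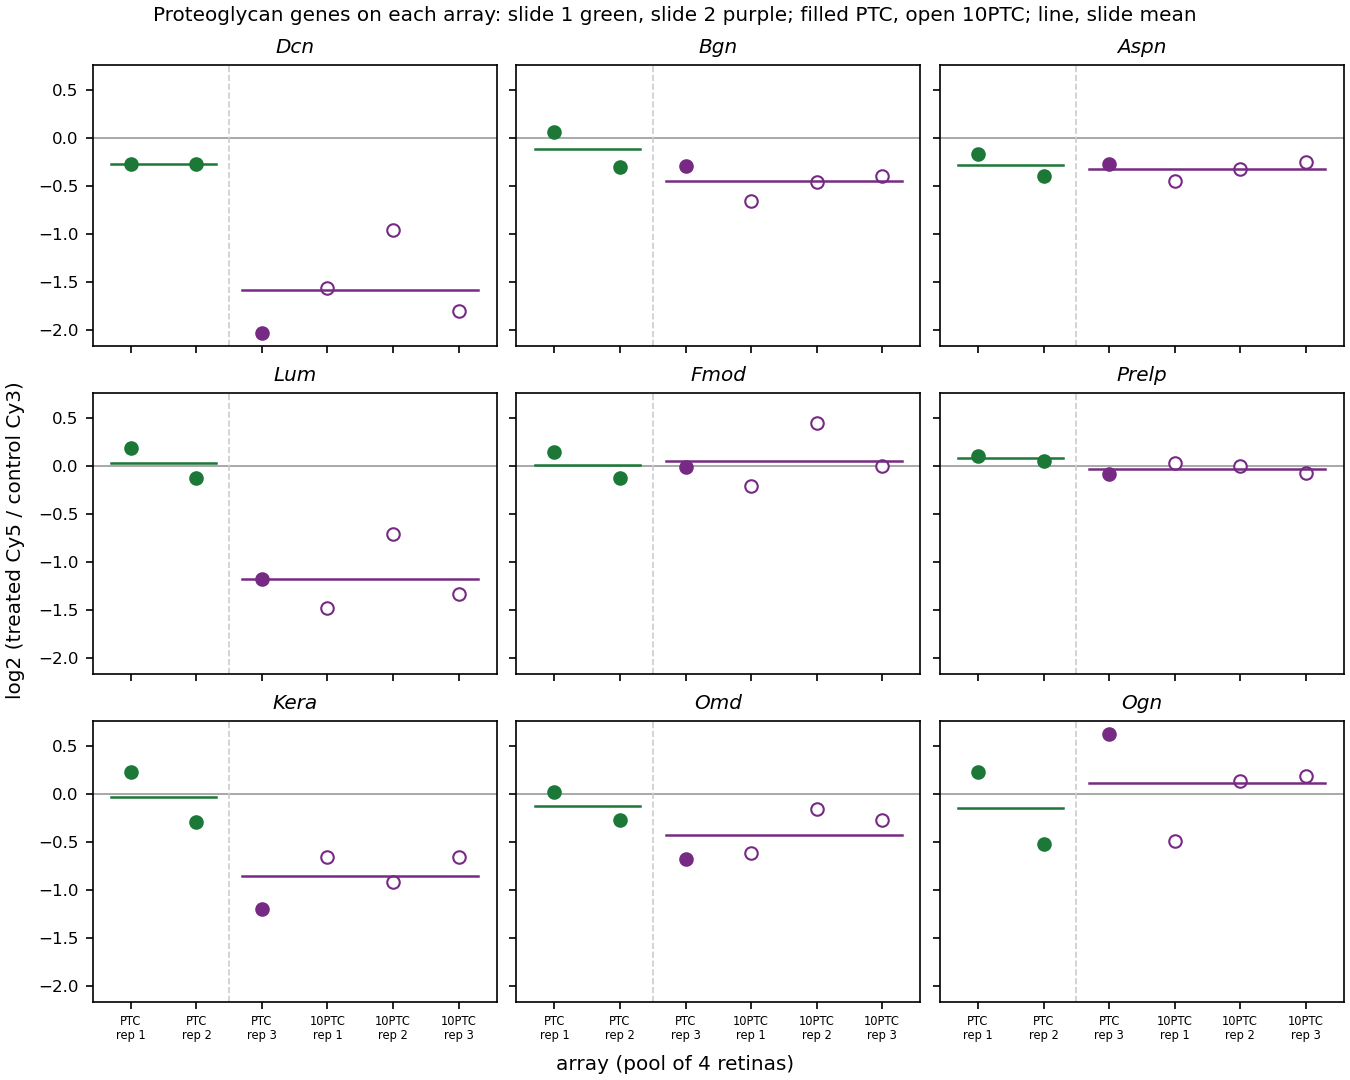
log2 ratio of treated over control for the 9 proteoglycan genes (vertical axis) on each of the 6 arrays (horizontal axis), with slide 1 in green, slide 2 in purple, PTC filled, 10PTC open and a line at each slide's mean. Dcn, Lum and Kera lie lower on all 4 slide 2 arrays than on both slide 1 arrays, whereas Fmod and Ogn are spread around 0 on both slides.

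Decorin binds type I collagen and transforming growth factor β. The log2 ratio of Dcn was -0.27 and -0.27 at PTC replicates 1 and 2, -2.03 at PTC replicate 3, and -1.56, -0.96 and -1.80 at 10PTC replicates 1 to 3. All 6 arrays were below 0, and the 4 arrays of slide 2 lay below both arrays of slide 1 without overlap. The lowest value belonged to a PTC pool, so the ratios did not separate by dose.

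By dose, the mean Dcn log2 ratio was -0.86 ± 1.02 (SD, n = 3) at PTC and -1.44 ± 0.44 (SD, n = 3) at 10PTC. The PTC mean rested on its slide 2 pool: without PTC replicate 3 it was -0.27. By slide it was -0.27 on slide 1 (n = 2) and -1.59 ± 0.46 on slide 2 (SD, n = 4), a difference of -1.32. As geometric means, the treated pools held 83.1% of the control's signal on slide 1 and 33.3% on slide 2.

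The 2 channels of Dcn were then read apart, as normalised log2 intensities. In the Cy3 control they were 13.80 and 13.81 on slide 1 and between 13.57 and 13.71 on slide 2, a slide difference of -0.19. In the Cy5 treated channel they were 13.54 and 13.55 on slide 1, and 11.56, 12.03, 12.76 and 11.77 on slide 2, a slide difference of -1.51. The gap between the slides therefore lay mostly in the treated channel.

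Biglycan, the closest relative of decorin, binds collagen and can act as a ligand of Toll-like receptors when it is free. Its log2 ratio was 0.07, -0.30 and -0.29 at PTC replicates 1 to 3 and -0.65, -0.45 and -0.40 at 10PTC replicates 1 to 3. Bgn was the 1 gene of the 9 whose 10PTC arrays were all below its PTC arrays, a pattern that 6.59% of all genes met. Its mean was -0.17 ± 0.21 at PTC and -0.50 ± 0.13 at 10PTC (SD, n = 3 each), or 88.6% and 70.7% of the control.

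Within slide 2 the 3 10PTC values of Bgn were also below the single PTC value there. Its channels did not behave like those of Dcn. The Cy3 control intensity was 8.56 on slide 1 and 9.52 on slide 2, higher by 0.96, and the Cy5 intensity was 8.44 and 9.07, higher by 0.63. Both channels of Bgn thus stood higher on slide 2, the control more than the treated pools, and the slide difference of its ratio was -0.33. That difference was -0.14 without PTC replicate 1 and -0.51 without PTC replicate 2, and median centring moved its PTC mean to -0.04.

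Asporin belongs to the same branch but carries no such chain, and it also binds collagen. Aspn had log2 ratios of -0.17, -0.40 and -0.27 at PTC replicates 1 to 3 and -0.45, -0.32 and -0.25 at 10PTC replicates 1 to 3. It was below 0 on 6 of 6 arrays, and the slides overlapped. The gene was dim, since its Cy5 signal was well above background on 1 of 6 arrays and on none of the PTC arrays. Aspn was measured 1.21-fold lower at PTC than in the control, with intensities of 6.80 in Cy3 and 6.53 in Cy5 as normalised log2 means. With Cy5 so near background, the size of this fold is not well measured. In the authors' deposited table Aspn had log2 ratios between -1.96 and -0.89 on the 6 arrays, with means of -1.39 at PTC and -1.50 at 10PTC.

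**Figure D2:**
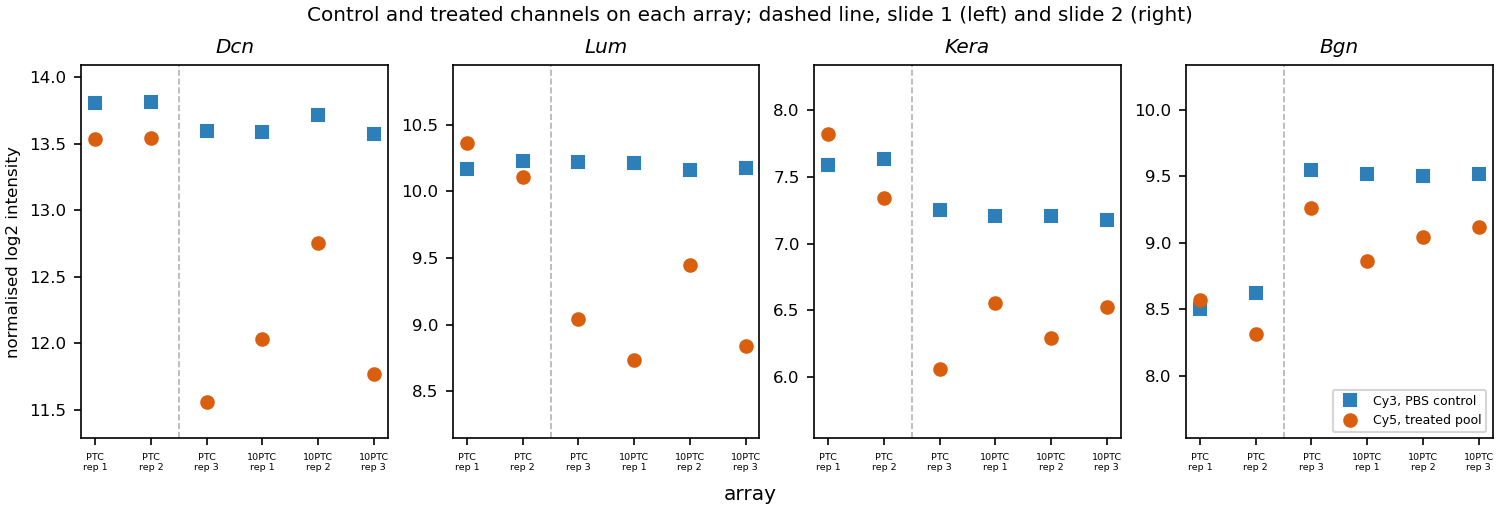
Normalised log2 intensity (vertical axis) of the Cy3 PBS control (blue squares) and the Cy5 treated pool (orange circles) for Dcn, Lum, Kera and Bgn on each array (horizontal axis), with the dashed line between slide 1 and slide 2. Only the treated channel of Dcn, Lum and Kera falls by more than 1 log2 unit from slide 1 to slide 2, while both channels of Bgn are higher on slide 2; every panel spans the same number of log2 units.

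Among the keratan sulfate bearing members, lumican and keratocan moved with Dcn. Lumican is needed for a clear cornea and is also made in sclera and skin. For Lum, the log2 ratio was 0.19 and -0.12 at PTC replicates 1 and 2, -1.18 at PTC replicate 3, and -1.48, -0.71 and -1.34 at 10PTC replicates 1 to 3. The slide 1 pools lay on either side of the control, and all 4 slide 2 pools lay below it.

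Its mean was -0.37 ± 0.72 at PTC and -1.17 ± 0.41 at 10PTC (SD, n = 3 each), and 0.03 on slide 1 against -1.18 ± 0.33 on slide 2 (SD, n = 4). Without PTC replicate 3 the PTC mean turned to 0.03. Treated signal was 102% of the control on slide 1 and 44.3% on slide 2. The Cy3 intensity of Lum differed by -0.01 between the slides and the Cy5 intensity by -1.22.

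Keratocan is the most cornea-restricted gene of the family. Kera had log2 ratios of 0.23 and -0.29 at PTC replicates 1 and 2, -1.20 at PTC replicate 3, and -0.65, -0.92 and -0.65 at 10PTC replicates 1 to 3. The 4 slide 2 arrays again lay below both slide 1 arrays, and the PTC pool on slide 2 was the lowest of all. Kera is the 1 gene of the 9 printed 10 times on each array, and the SD among the spots of an array, which is technical, was 0.048 to 0.122.

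The mean of Kera was -0.42 ± 0.72 at PTC and -0.74 ± 0.15 at 10PTC (SD, n = 3 each), and without PTC replicate 3 the PTC mean was -0.03. The means of the slides were -0.03 ± 0.37 (SD, n = 2) and -0.85 ± 0.26 (SD, n = 4), or 97.9% and 55.3% of the control. Its Cy3 intensity differed by -0.40 between the slides and its Cy5 intensity by -1.22. The gene was dim, and on PTC replicate 3 its Cy5 signal was not well above background, so that the size of the ratio there is not well measured.

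The background correction added an offset of 50 to the signals, which shrinks the ratios of dim probes. In the authors' deposited table, Kera had log2 ratios of 0.39, -0.64 and -3.72 at PTC replicates 1 to 3 and -1.35, -2.23 and -1.37 at 10PTC replicates 1 to 3. Dcn, a bright probe, had -0.21, -0.26 and -2.05 at PTC in the authors' deposited table, close to the values above. The order of the slides was the same in both sources for Kera and for Dcn.

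Fibromodulin, the nearest relative of lumican, is known from tendon and sclera. The log2 ratio of Fmod was 0.15, -0.13 and -0.01 at PTC replicates 1 to 3 and -0.20, 0.45 and 0.00 at 10PTC replicates 1 to 3. No slide or dose stood apart, and the means were 0.00 ± 0.14 at PTC and 0.08 ± 0.33 at 10PTC (SD, n = 3 each). Its slide difference was 0.05, smaller than the spread within either slide.

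Prolargin anchors basement membranes to the collagen beneath. Prelp had log2 ratios of 0.11 and 0.06 on slide 1 and -0.08, 0.03, 0.01 and -0.07 on slide 2. The slides did not overlap, but their means differed by only -0.11. Its signals stayed above background in Cy3 and Cy5 throughout, but the gene was dim, with Cy3 intensities of 7.05 on slide 1 and 6.83 on slide 2. In the authors' deposited table the slides of Prelp overlapped, with 0.34 and 0.13 on slide 1 and 0.00, 0.31, 0.25 and 0.06 on slide 2. Its 10PTC mean there was 0.21, against -0.01 here.

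Osteomodulin is known from bone and dentin. Omd had log2 ratios of 0.02, -0.27 and -0.67 at PTC replicates 1 to 3 and -0.61, -0.15 and -0.27 at 10PTC replicates 1 to 3, with overlap between slides and doses. Its Cy5 signal was well above background on 1 of 3 PTC arrays and on 3 of 3 10PTC arrays. In the authors' deposited table its means were -1.27 at PTC and -1.14 at 10PTC, with -2.56 on PTC replicate 3. Osteoglycin, also called mimecan, is a small proteoglycan of cornea and bone. The log2 ratio of Ogn was 0.23, -0.52 and 0.63 at PTC replicates 1 to 3 and -0.49, 0.14 and 0.18 at 10PTC replicates 1 to 3. Ogn was the most scattered of the genes with no slide pattern, and its highest value was the PTC pool on slide 2, the same pool in which Dcn and Kera were lowest.

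All 4 slide 2 arrays lay below both slide 1 arrays for 4 of the 9 genes, Dcn, Lum, Kera and Prelp. Over all genes 7.8% met this pattern, and since the genes had been selected on the slides, nothing is read from the count. In the authors' deposited table the slides of Prelp overlapped. The 6 arrays share slides, and whether they share PBS control RNA is not stated. Across them, the ratios of Dcn correlated with those of Lum at r = 0.93, Prelp at 0.89, Kera at 0.79, Omd at 0.75, Bgn at 0.53, Fmod at 0.22, Aspn at 0.08 and Ogn at -0.41. Those of Kera correlated with Prelp at r = 0.85 and with Lum at r = 0.75. These values describe 6 arrays in 2 slide groups and carry no test.

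The family sits in tight gene groups, and Dcn, Lum and Kera are neighbours. Their probes and that of epiphycan (Epyc), a cartilage member of the family, lie within 163.792 kb of chromosome 10. Epyc did not follow its neighbours: its log2 ratio was 0.06 on slide 1 and 0.15 on slide 2, and it was not called at either dose (limma, adjusted p = 0.310 at PTC and 0.207 at 10PTC). On chromosome 13, Ecm2, Aspn, Omd and Ogn lie within 91.526 kb, with slide differences of 0.03, -0.04, -0.30 and 0.26. On chromosome 1, Optc, Prelp and Fmod lie within 150.254 kb, with differences of -0.03, -0.11 and 0.05.

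**Figure D3:**
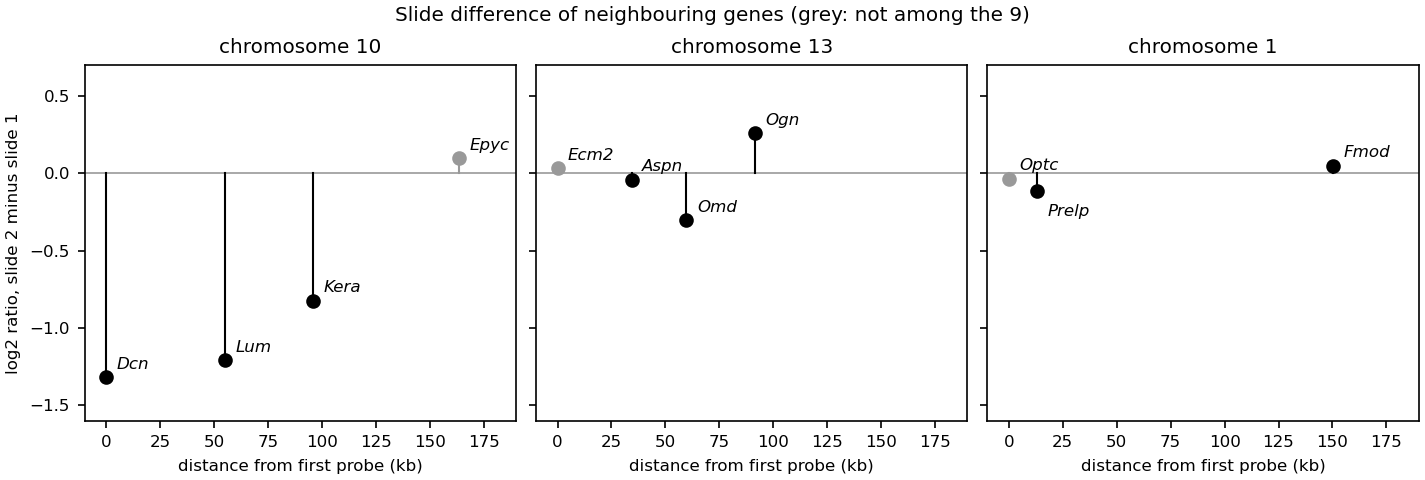
Difference of the mean log2 ratio between slide 2 and slide 1 (vertical axis) for neighbouring proteoglycan genes against distance from the first probe of each group in kb (horizontal axis), with genes outside the 9 in grey. On chromosome 10, Dcn, Lum and Kera are at -1.32, -1.21 and -0.82 and Epyc is at 0.10.

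The other 9 genes of the family on the array were Epyc, Optc, Ecm2, Chad, Chadl, Nyx, Podn, Podnl1 and Tsku. At each dose, limma with Benjamini-Hochberg adjustment over all genes at 0.05 called 1 of them lower and none higher. Over all 26135 genes it called 16.3% lower and 16.9% higher at PTC, and 13.3% lower and 14.4% higher at 10PTC, or 33.1% and 27.7% in either direction. With a term for the slide the shares in either direction were 22.6% at PTC and 3.87% at 10PTC. All 10PTC arrays shared a slide, so that the slide term was set by the PTC arrays alone. The low 10PTC share, and the 10PTC counts given below with this term, therefore cannot tell slide from dose. Fitted alone and without a slide term, the 10PTC arrays called 9370 of 26135 genes. The p-values measure the spread among these pools. The sources used here do not say whether pools of a dose shared animals or whether the arrays shared control RNA. The gene that fell was Nyx, nyctalopin, which sits on retinal ON bipolar cells and is needed for their light response.

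Nyx had log2 ratios of -0.64, -0.28 and -0.30 at PTC replicates 1 to 3 and -0.30, -0.15 and -0.32 at 10PTC replicates 1 to 3, below 0 on 6 of 6 arrays. The mean was -0.41 ± 0.20 at PTC (SD, n = 3, limma adjusted p = 0.00774) and -0.26 ± 0.09 at 10PTC (SD, n = 3, limma adjusted p = 0.0432). In the model with the slide Nyx was the 1 gene still called at PTC, and none of the 9 was called at 10PTC. Its 10PTC call was lost without PTC replicate 3 and without any 1 of the 10PTC arrays. Opticin (Optc), a vitreous and ciliary body member, ranged from -0.82 to 1.54 at 10PTC and was not called. The other 6, Chad, Chadl, Ecm2, Podn, Podnl1 and Tsku, had means between -0.11 and 0.13 at PTC and between -0.27 and 0.00 at 10PTC, and none was called.

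No gene at all differed between the doses by limma after adjustment (0% of 26135 genes, with 2130 at an unadjusted p under 0.05). The slide term, which after dose rests on PTC replicates 1 and 2 against PTC replicate 3, called none of 26134 genes either, with 880 at an unadjusted p under 0.05. The 10PTC arrays were all on slide 2, so that dose and slide cannot be told apart outside the single PTC array there.

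Collagens that the family binds were next set beside it, namely fibrillar collagens, which Dcn, Lum and Fmod coat, and others such as collagen VI. Of 12 measured collagen genes, 4 fell and 2 rose at PTC, and 6 fell and none rose at 10PTC. Over all genes 33.1% and 27.7% were called in either direction. The median log2 ratio of the collagen genes was -0.03 at PTC and -0.27 at 10PTC. With a term for the slide, 1 rose and 4 fell at PTC and 1 fell at 10PTC, where 22.6% and 3.87% of all genes were called. At 10PTC, 3 collagens were called without 10PTC replicate 1. Both measured chains of collagen VI fell at both doses. Col6a2 was at -0.43 ± 0.05 at PTC and -0.38 ± 0.03 at 10PTC (SD, n = 3 each; limma adjusted p = 0.000943 and 0.00188). Col6a1 was at -0.40 ± 0.13 and -0.38 ± 0.04 (limma adjusted p = 0.00286 and 0.00456). Col14a1, a collagen on fibril surfaces, had means of -1.01 ± 0.36 and -1.12 ± 0.37 (SD, n = 3 each; limma adjusted p = 0.00441 and 0.00435). These 3 genes were low on both slides.

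Type I collagen had a slide pattern like that of Dcn and Lum; its genes are named after their values were seen. Col1a1 had log2 ratios of 0.61 and 0.10 on slide 1 and -0.94, -1.26, -0.99 and -1.40 on slide 2. That of Col1a2 was 0.19 and -0.04 on slide 1 and -0.94, -1.27, -0.60 and -1.10 on slide 2. Col3a1, the type III chain, was low on both slides, with -1.05 and -1.78 on slide 1 and -2.20, -2.64, -1.01 and -2.26 on slide 2. For 4 of the 12 collagen genes all slide 2 arrays lay below both slide 1 arrays, against 7.8% of all genes.

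By the rule of smallest root mean square difference to the median of the 9 genes over the 6 arrays, the 10 nearest genes were Dlx6, Gm9304, ENSMUST00000037107, LOC100047149, Olfr1349, Erbb2, Gpc3, Gm7298, ENSMUST00000065740 and LOC637082, at distances of 0.064 to 0.087 log2 units. That median hides the slide step, so a second profile, the mean of Dcn, Lum and Kera, was added after the values were seen. It was 0.05 and -0.23 on slide 1 and -1.47, -1.23, -0.86 and -1.26 on slide 2. The nearest genes to it were Apod, Col1a2 and Col1a1, at 0.27, 0.27 and 0.35 log2 units. Adh7, A_55_P1953377, Asb11, Yipf7, Tpm2, Postn and Crip1 followed, at 0.37 to 0.41.

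Markers of some tissues next to the retina, those of cornea above all, moved with the slides as well. The part of these tissues in the proteoglycan values was not tested. All 6 cornea markers were measured, and 5 of the 6 were lower on all slide 2 arrays than on both slide 1 arrays. Their median log2 ratio was 0.81 and 0.86 on slide 1 and -0.69, -0.91, -0.12 and -0.75 on slide 2. Their summed Cy5 intensity was 26060 to 37308 on slide 1 and 5615 to 10201 on slide 2, while the summed Cy3 intensity was 12431 to 13153 and 10783 to 11292.

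Krt12, the keratin of corneal epithelium, is named after its values were seen. Its log2 ratio was 3.32 and 4.22 on slide 1 and -1.42, -1.50, -0.08 and -1.65 on slide 2. Of the leading cornea markers, Aldh3a1, a corneal crystallin, had 0.75 and 0.99 on slide 1 and -0.19, -0.71, -0.21 and -0.56 on slide 2. Both genes were above the control on slide 1 and below it on slide 2, as was Krt5, with means of 0.73 and -1.66. The rest of the list did not cross the control in this way. Tgfbi was above it on both slides (means 1.13 and 0.19) and Krt14 below it on both (-0.59 and -0.85). Angptl7 was at 0.82 on slide 1 and near the control on slide 2, at -0.06.

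Fibroblast markers, 11 of 12 of them measured, had median log2 ratios of -0.10 on slide 1 and -0.86 on slide 2. Against 16.3% and 13.3% of all genes called lower, 5 of them fell at PTC and 8 at 10PTC, and none rose. Their summed Cy5 intensity was 17680 to 22358 on slide 1 and 9213 to 18003 on slide 2, against 27373 to 27384 and 25071 to 25760 in Cy3. By dose the Cy5 sums were 10427 to 22358 at PTC and 9213 to 18003 at 10PTC. Col1a1, Col1a2 and Col3a1 count in this list and among the collagens. Pi16, a marker of adventitial fibroblasts and one of its leading genes, was at -2.65 on slide 1 and -2.92 on slide 2, low on both.

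Skeletal muscle and fat were low against the control on both slides. Of 14 muscle markers 13 fell at each dose, where 16.3% of all genes were called lower at PTC and 13.3% at 10PTC. The median log2 ratio of the muscle markers was -2.48 on slide 1 and -2.59 on slide 2. Their summed intensity was 67432 to 69313 in Cy3 and 4755 to 14253 in Cy5. Of 7 fat markers, 7 fell at PTC and 6 at 10PTC, against the same shares of all genes, with medians of -0.74 on slide 1 and -1.50 on slide 2. The Cy5 sums of the fat markers were 3718 to 3984 on slide 1 and 2508 to 2823 on slide 2, against 8695 to 9321 in Cy3 over all arrays. All slide 2 arrays lay below both slide 1 arrays for 0 of 14 muscle markers, 3 of 7 fat markers and 3 of 11 fibroblast markers, against 7.8% of all genes. The median of the fat markers separated by slide as well, with -0.75 and -0.74 on slide 1 and -1.25, -1.64, -1.22 and -1.80 on slide 2. For 1 fibroblast marker, Clec3b, all slide 2 arrays lay above both slide 1 arrays, with means of -1.23 on slide 1 and -0.86 on slide 2.

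**Figure D4:**
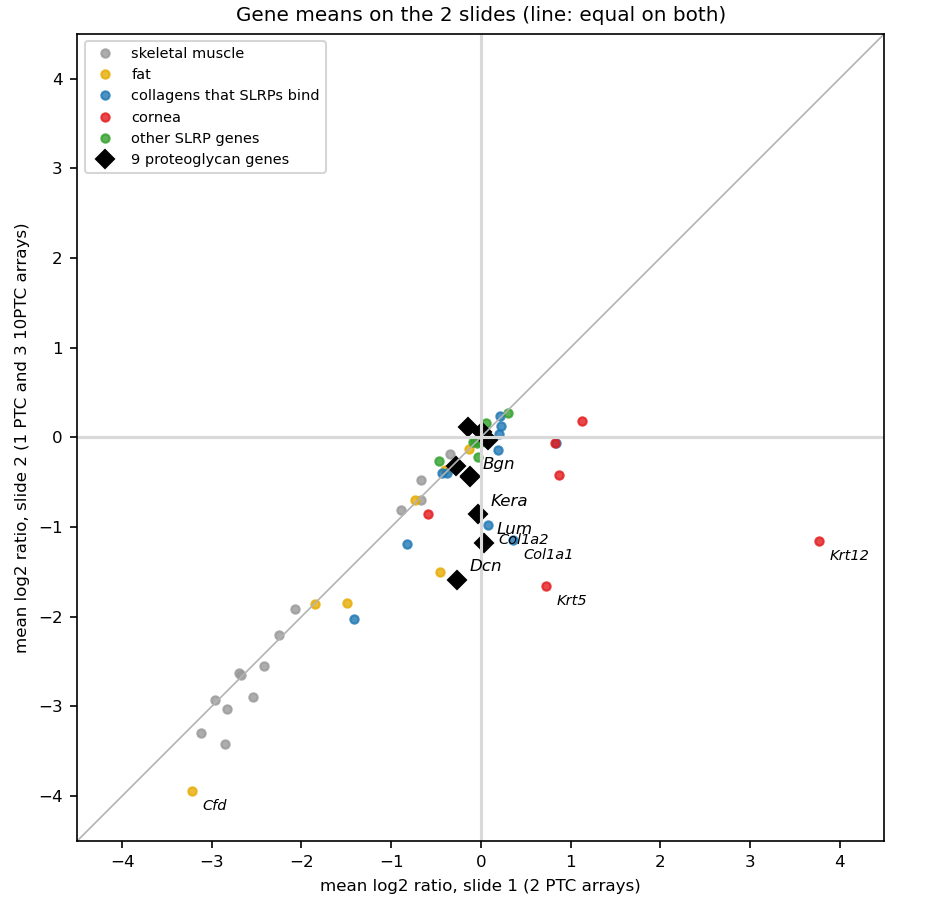
Mean log2 ratio on slide 1 (horizontal axis, 2 arrays) against slide 2 (vertical axis, 4 arrays) for the 9 proteoglycan genes (black diamonds) and for collagen, cornea, fat, muscle and other family genes, with the line of equal values. Muscle markers lie along the line, while Dcn, Lum, Kera, Col1a1, Col1a2 and most cornea markers lie below it.

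Meningeal, mural and endothelial markers had medians of 0.20, 0.03 and 0.01 on slide 1 and -0.05, -0.02 and 0.11 on slide 2. Lens markers were at -0.18 and 0.36 with none called at either dose, and pigment cell markers at 0.52 and 0.32. All 8 microglia and macrophage markers rose at both doses, where 16.9% of all genes were called higher at PTC and 14.4% at 10PTC. The medians of these markers were 1.44 on slide 1 and 1.26 on slide 2. Retinal neuron and Müller glia markers were at -0.18 on slide 1 and -0.11 on slide 2, with 2 higher and 6 lower at PTC and 2 higher and 5 lower at 10PTC. Of all genes, 33.1% at PTC and 27.7% at 10PTC were called in either direction. The measured markers had all passed the filter on dim probes, so that none could lie below background on all arrays.

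**Figure D5:**
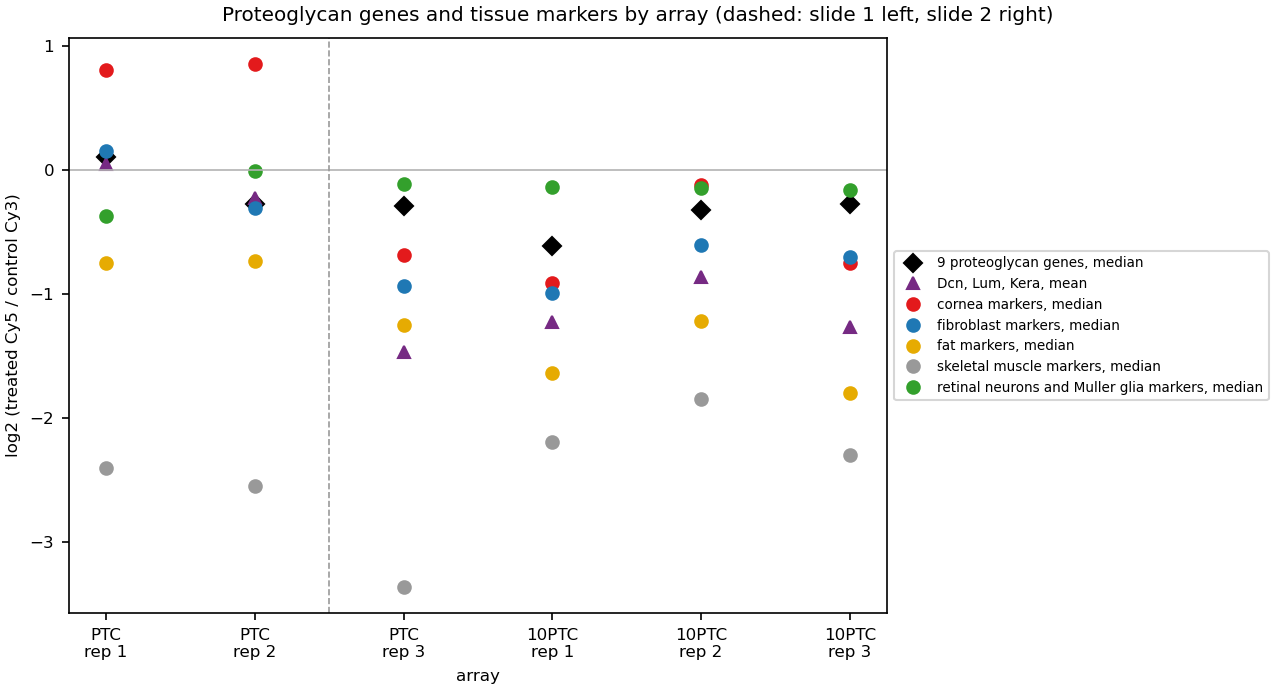
Median log2 ratio of marker lists and of the 9 proteoglycan genes, and the mean of Dcn, Lum and Kera (vertical axis), on each array (horizontal axis), with the dashed line between the slides. The mean of Dcn, Lum and Kera and the cornea and fibroblast medians are lower on every slide 2 array than on both slide 1 arrays, while the muscle medians of the slides overlap.

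The enzymes that build the chains of these proteoglycans included genes called in both directions. Of 20 chondroitin and dermatan chain enzymes, 3 rose and 5 fell at PTC and 2 rose and 4 fell at 10PTC. Over all genes 33.1% and 27.7% were called in either direction. Csgalnact2, which starts chondroitin chains, rose by 0.49 ± 0.05 at PTC and 0.44 ± 0.13 at 10PTC (SD, n = 3 each; limma adjusted p = 0.00173 and 0.00346). B3gat3, which completes the linkage to the protein, had -0.36 ± 0.09 and -0.19 ± 0.06 (limma adjusted p = 0.00302 and 0.0311), and median centring of the arrays turned its 10PTC value to 0.024. Its 10PTC call was lost without any 1 of the 10PTC arrays. Chpf, a chondroitin polymerase subunit, fell to -0.31 ± 0.05 and -0.29 ± 0.13 (limma adjusted p = 0.00695 and 0.0110). Adding the slide to the model left 3 of the 20 called at PTC and none at 10PTC, against 22.6% and 3.87% of all genes. Calls numbered 3 at PTC without PTC replicate 2 or 3 and 4 without PTC replicate 1, and at 10PTC 1 without 10PTC replicate 1 or 3 and 3 without 10PTC replicate 2.

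Of 7 keratan sulfate enzymes, 2 rose and 1 fell at each dose, where 33.1% of all genes were called at PTC and 27.7% at 10PTC. The one that fell was Chst1, which sulfates galactose in keratan chains, with -0.68 ± 0.17 at PTC and -0.38 ± 0.10 at 10PTC (SD, n = 3 each; limma adjusted p = 0.00129 and 0.0104). B4galt1, a galactosyltransferase, rose by 0.18 ± 0.08 and 0.21 ± 0.06 (limma adjusted p = 0.0246 and 0.0188). B3gnt2, which extends chains of this type, rose by 0.18 ± 0.06 at 10PTC (limma adjusted p = 0.0340) and had 0.09 ± 0.09 at PTC (limma adjusted p = 0.200). The PTC call of B4galt1 was lost without PTC replicate 1, PTC replicate 2 or 10PTC replicate 3. The 10PTC calls of B4galt1 and B3gnt2 were lost without any 1 of the 10PTC arrays. In the model with the slide, 1 of the 7 was called at PTC and none at 10PTC, against 22.6% and 3.87% of all genes. At PTC, 1 was called without PTC replicate 1, PTC replicate 2 or 10PTC replicate 3, and at 10PTC none was called without 10PTC replicate 1 or 3 and 1 without 10PTC replicate 2.

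Of 13 matrix proteases and enhancers, 5 rose and 1 fell at PTC and 2 rose and 1 fell at 10PTC, where 33.1% and 27.7% of all genes were called. At PTC, 1 was called without PTC replicate 3. At 10PTC, 7 were called without PTC replicate 1, 5 without PTC replicate 2 and 1 without 10PTC replicate 1 or 3. Adamts1, a secreted protease that cuts proteoglycans, rose by 0.59 ± 0.40 and 0.91 ± 0.08 (SD, n = 3 each; limma adjusted p = 0.0129 and 0.00423); its PTC mean was 0.38 without PTC replicate 1, and its PTC call was lost without PTC replicate 3. Pcolce, which speeds the trimming of procollagen, rose by 0.77 ± 0.56 and 0.70 ± 0.18 (limma adjusted p = 0.0167 and 0.0275). The PTC mean of Pcolce was 0.46 without PTC replicate 1, and its 10PTC call was lost without any 1 of the 10PTC arrays. Mmp2, a gelatinase, was at -0.24 ± 0.10 and -0.28 ± 0.07 (limma adjusted p = 0.0112 and 0.00976). In the model with the slide, 3 were called at PTC and none at 10PTC, against 22.6% and 3.87% of all genes.

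Of 18 growth factors and receptors that the family is known to bind, 7 rose and 2 fell at PTC and 4 rose and 3 fell at 10PTC, where 33.1% and 27.7% of all genes were called. At 10PTC, 12 were called without PTC replicate 1, 1 without 10PTC replicate 1 or 3 and 2 without 10PTC replicate 2. Ccn4, a secreted Wnt target that binds decorin and biglycan, was at 0.28 ± 0.07 at PTC and -0.37 ± 0.04 at 10PTC (SD, n = 3 each; limma adjusted p = 0.00422 and 0.00262). Tgfb3 was at -0.30 ± 0.01 and -0.19 ± 0.02 (limma adjusted p = 0.00247 and 0.0123), and median centring turned its 10PTC value to 0.029. Tgfbr1, the type I receptor of transforming growth factor β, rose by 0.28 ± 0.10 and 0.19 ± 0.04 (limma adjusted p = 0.00645 and 0.0297). The 10PTC call of Tgfbr1 was lost without any 1 of the 10PTC arrays. With a term for the slide, 7 were called at PTC and 1 at 10PTC, against 22.6% and 3.87% of all genes.

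Of 26 other matrix and cell surface proteoglycans, 5 rose and 4 fell at PTC and 4 rose and 4 fell at 10PTC, where 33.1% and 27.7% of all genes were called. At PTC, 5 were called without PTC replicate 1 and 4 without PTC replicate 3, and at 10PTC 2, 4 and 3 without 10PTC replicates 1, 2 and 3 in turn. Impg2, a proteoglycan of the matrix around photoreceptors, rose by 0.99 ± 0.28 and 0.95 ± 0.12 (SD, n = 3 each; limma adjusted p = 0.00111 and 0.00167). Spock2, a brain matrix proteoglycan, fell to -0.54 ± 0.15 and -0.49 ± 0.07 (limma adjusted p = 0.00164 and 0.00301). Ncan, neurocan of nervous tissue, fell to -0.32 ± 0.11 at PTC (limma adjusted p = 0.00422) and had -0.13 ± 0.01 at 10PTC (limma adjusted p = 0.102). Impg2 and Spock2 kept nearly the same level on the slides, with 1.05 and 0.93, and -0.61 and -0.47. With a term for the slide, 5 were called at PTC and 2 at 10PTC, against 22.6% and 3.87% of all genes.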

How the data were processed

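Per the labels' protocols, RNA of 4 pooled retinas was labelled directly with Cy3 (control) or Cy5 (treated). Scanner files as deposited give an intensity in each channel and a log10 ratio per spot, from Agilent Feature Extraction 10.7.3.1 (design 026655), per the file headers; the submitters' processing notes name 9.3.2.1. The authors' table holds deposited log2 ratios, which run as Cy5 over Cy3 (slope of 3.32 on the log10 ratio, r between 0.983 and 1.00; column medians -0.075 to 0.039, and their centring is unknown).

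Mean signals were background-corrected with normexp (offset 50) and loess-normalised within arrays in limma 3.58.1 under R 4.3.3, with control spots at weight 0 and outlier spots left out. Spots of a probe were averaged, and the brightest probe of a gene was used. Of 39429 probes, 26055 were named by accession, 3195 by symbol, 929 by synonym, and 9250 kept the file's name; 6939 were too dim. Channel values are after Aquantile. For the Aspn fold at PTC, Cy5 was not taken below the lowest signal well above background, a floor that left the fold unchanged. The ratios and channel values of the dim genes were not floored. Median signals were 153 to 221 (Cy3) and 187 to 347 (Cy5), with backgrounds of 26 to 29 and 47 to 48. The number of arrays limits the precision.

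The model had 1 coefficient per dose over 6 arrays, and a further fit added the slide. Only the limma fit at PTC was tried on simulated data, with independent noise and no slide effect. The genes and lists were chosen with earlier results of these data known. Named genes were the 9, up to 3 called genes of smallest p per list, all 9 other family genes, 10 nearest profiles and leading markers; others are said to be so. Not measured were Col6a3, Chst4, Tll2, Itga2 and Lox. Alternatives changed the signal, background, offset, normalization, filter, outliers, probe rule, source table, samples and blocks.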

Additional observations from a re-analysis of the deposited data

Results flagged for a closer look

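Among genes of the pathways around the proteoglycans, 4 had all PTC arrays on one side of the control and all 10PTC arrays on the other, while the limma test of 10PTC against PTC called none of them. The share of all genes with this pattern is not given here, so nothing is read from the count. Ccn4 differed by -0.66 between 10PTC and PTC (limma adjusted p = 0.228), with PTC values of 0.21, 0.33 and 0.31 and 10PTC values of -0.34, -0.36 and -0.41. Col12a1 differed by -0.66 (limma adjusted p = 0.584), with PTC values of 1.11, 0.56 and 0.04 and 10PTC values of -0.10, -0.08 and -0.10. Ust, a dermatan sulfotransferase, differed by 0.22 (limma adjusted p = 0.575), with PTC values of -0.12, -0.13 and -0.24. Its 10PTC values were 0.00083, 0.18 and 0.0013. Chst12, a chondroitin sulfotransferase, differed by 0.11 (limma adjusted p = 0.648), with PTC values of -0.07, -0.09 and -0.07. Its 10PTC values were 0.0022, 0.089 and 0.023. Some 10PTC values of Ust and Chst12 were thus barely above the control. For Ccn4 the PTC pool on slide 2, at 0.31, was with the other PTC pools and apart from the 10PTC pools of its own slide.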

How the results depend on the processing

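Dose and slide overlap, 6 arrays carry no dye swap, and dim genes (Kera, Omd, Aspn) have ratios that depend on the offset, so that signal over background limits their size. Of 423 recomputed values of the 9 genes, 376 moved by less than the spread between replicates, 47 by more, and 26 changed sign, among Fmod, Prelp, Ogn, the slide difference of Aspn and the PTC mean of Lum on slide 1 alone or without PTC replicate 3. The slide differences of Dcn (-1.39 to -1.27) and Lum (-1.30 to -1.20) kept their sign and size over 9 processing alternatives, and that of Kera ranged from -2.12 to -0.82 over 8, with the filter on both channels leaving it out. The median of the 9 genes at 10PTC was -1.16 with processed signals, -0.66 without an offset, -0.59 with median centring and -1.14 with the authors' table, which also moved the median slide difference from -0.30 to -0.50. Genes called numbered 8657 at PTC and 7233 at 10PTC. At 10PTC they were 4442 with processed signals, 4581 with the authors' table, 1011 with a slide term and 14635 with median centring (9646 higher and 4989 lower, against 3763 and 3470; at PTC 8203 and 4213, against 4404 and 4253), which moved the median of all genes to 0.05 at PTC and 0.08 at 10PTC. At PTC they were 4609 with each dose alone, 1716 on slide 2 and 289 on slide 1. With an array left out, calls ranged from 5005 to 7863 at PTC (lowest without PTC replicate 3) and from 1361 to 9122 at 10PTC (1361 without 10PTC replicate 1, 1566 without replicate 3), from 0 to 1 between doses and from 0 to 124 between slides (124 without PTC replicate 2). The median of the 9 genes then ranged from -0.33 to -0.12 at PTC, from -0.44 to -0.29 at 10PTC and from -0.45 to -0.14 between slides. Of 1105 values of other named genes, 2 reversed, B3gat3 (0.024) and Tgfb3 (0.029) at 10PTC under median centring; the cause was not tested. Of 18 named genes called at 10PTC, 10 lost the call without 10PTC replicate 1, 6 without replicate 2 and 10 without replicate 3; of 18 called at PTC, at most 2 did so without any 1 array. Same-numbered pools did not deviate together (r = -0.27, 0.15 and 0.20), so numbers were not taken as pairs; with the replicate block 6452 genes were called at PTC and 4823 at 10PTC.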
